A study of Mus musculus with 21 samples.

Results

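The comparison described here set the control mouse brain at 7 weeks after birth against the control brain at embryonic day 18.5 (E18.5), shortly before birth. Its members were the 11 water-treated control libraries of a series of 21 libraries, 6 from E18.5 and 5 from 7 weeks, chosen by their labelled condition and age. The other libraries, from mice given the copper chelator trientine, were not used. All 11 samples carried the tissue label "Mouse brain" and had received water, with no genotype or allele stated, and RNA was sequenced as stranded poly(A) libraries. The extraction text, identical for every sample, speaks of prefrontal cortex from male 7-week mice only, so the region and the sex of the E18.5 samples are not given. The labels do not say which libraries came from separate animals or litters, so p-values measure the spread between these samples, which may be partly technical. Age, the count table and any difference in dissected region changed together between the groups and cannot be told apart, and for that reason only differences of at least 4-fold were called.

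In late gestation the mouse forebrain still holds dividing radial glia and intermediate progenitors, and most of its cortical neurons are young cells that are migrating or extending axons. After birth the progenitors are used up, astrocytes and oligodendrocytes expand, myelin is laid down and synapses form and are refined. Receptor subunits, ion channels and cytoskeletal proteins of immature neurons are exchanged for adult forms over the same weeks.

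The libraries held between 14668965 and 24035857 counts assigned to genes. Of 21872 symbols in the 2 count tables, 17978 had at least 1 count in a control library and 14375 passed the filter on low counts. Levels are given as CPM, counts scaled to a library of fixed size, after TMM scaling (the trimmed mean of M-values) between libraries. The ages separated along principal component 1, with 94.9% of the variance, and component 2 held 0.935%. The biological coefficient of variation between libraries was 5.92% at E18.5 and 4.59% at 7 weeks. In the E18.5 table, 1940 genes were at 0 in replicate 1-1 and held only multiples of 11 in the other libraries, and these values were divided by 11. The sources used here do not say where the factor came from, so for the genes it touches that are named with a fold change the fitted log2 value without the division is given as well. The 13 protein-coding genes of the mitochondrial genome were listed at 0 in all libraries.

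The tissue label was checked against marker genes. Of 38 genes of the diencephalon, midbrain and hindbrain, 24 stayed under 1 CPM on average at both ages and 6 were at 0 in all 11 libraries. In the same list 2 genes reached a mean of at least 5 CPM at either age. The 7 hindbrain Hox genes on that list had 1 count in total at E18.5 and 7 counts at 7 weeks. Of 15 markers of striatal projection neurons, 9 were higher and 6 lower at 7 weeks, at any size of change. The dopamine receptor gene Drd1 was at 19.1 ± 1.64 CPM (SD, n = 6) at E18.5 and 31.9 ± 4.09 CPM (SD, n = 5) at 7 weeks. In contrast, Isl1 and Ebf1 had means of 26.5 and 35.1 CPM in the embryo, against 0.959 and 2.92 CPM in the older brain. Together the 15 genes made up 0.130 to 0.144% of each embryonic library, and 0.106 to 0.127% of each 7-week library. The amount of striatal tissue in the samples was not tested. The 4 Y-linked genes Ddx3y, Eif2s3y, Kdm5d and Uty were at 0 in E18.5 replicates 2-1 and 3-2 and were detected in the other 9 libraries. Replicates 2-1 and 2-2 thus differed in these genes, as did 3-1 and 3-2, so neither pair can be repeats of the same animal. Replicates 1-1 and 1-2 both had counts of them, which does not tell these 2 apart. All 7-week libraries had such counts, so the ages also differed in this respect. Without replicates 2-1 and 3-2, a check added after the data were seen, 1568 genes were called higher and 805 lower, against 1524 and 822 with them.

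Between the ages, 1524 of 14375 genes (10.6%) were higher and 822 (5.72%) were lower at 7 weeks, by at least 4-fold at an adjusted p under 0.05. The quasi-likelihood test of edgeR was used, p was adjusted by the method of Benjamini and Hochberg, and the largest adjusted p among these 2346 genes was 0.0027. "Rose", "fell" and "called" below refer to this rule, and every fold change is 7 weeks over E18.5 on the log2 scale. The 2 groups of libraries did not overlap for 2336 of the called genes, against 11538 (80.3%) of all genes tested. Without the size threshold 12871 genes (89.5%) passed, 6330 higher and 6541 lower, while 8545 genes (59.4%) differed by less than 2-fold. The median over all genes tested was -0.02, and leaving out the TMM factors moved log2 fold changes by a median of -0.15.

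**Figure D1:**
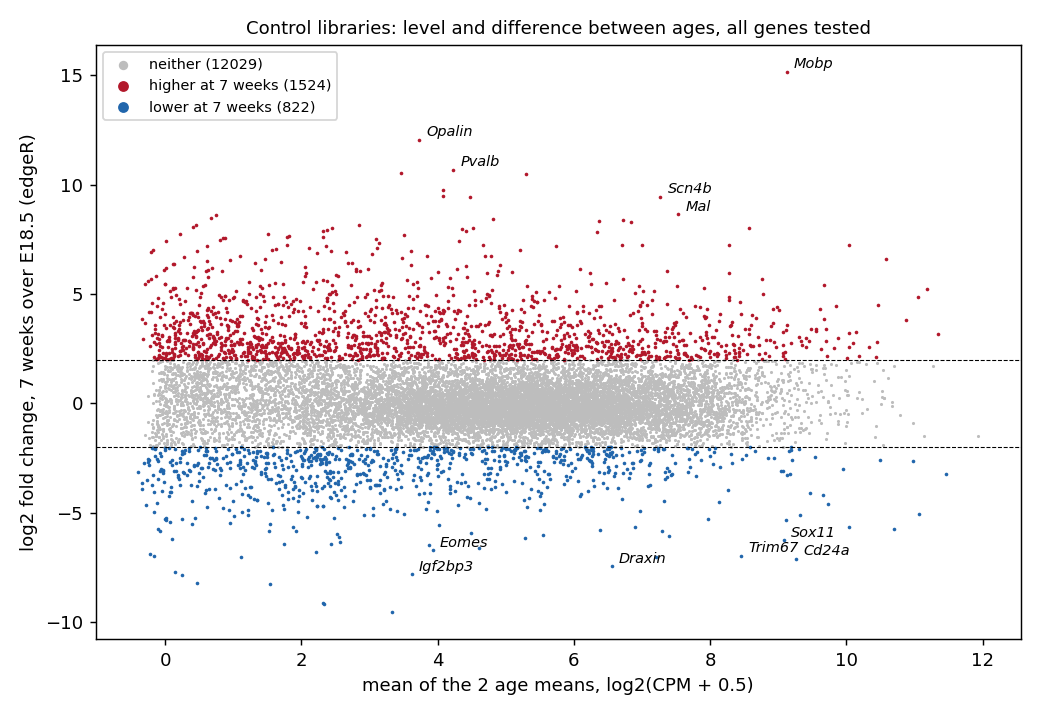
Log2 fold change (7 weeks over E18.5) against the mean level in log2(CPM + 0.5) for the 14375 genes tested. Red points are the 1524 genes called higher and blue points the 822 called lower, dashed lines mark 4-fold, and Mobp (15.17) and Draxin (-7.46) are among the genes labelled.

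Among genes of at least 20 CPM at 7 weeks whose ages did not overlap, the 10 largest rises included several myelin genes. Mobp, which encodes a structural protein of myelin (chr9:120149742-120181488, GRCm38.p6), had 3 counts over all 6 E18.5 libraries after the division by 11, between 0 and 0.0851 CPM. At 7 weeks it stood at 1032, 1170, 1045, 1058 and 1262 CPM, a ratio of 46360 with a 95% exact interval from 15863 to 224807 that covers counting error only and not the division. Opalin, another oligodendrocyte membrane protein gene (chr19:41061959-41077113), had no count at E18.5 and 22.9, 29.9, 23.7, 24.9 and 26.5 CPM at 7 weeks. Against a floor of 3 counts over the E18.5 group it was at least 1066-fold higher. Both genes separated the ages completely, as the choice of these genes required, and their fitted log2 fold changes (15.17 and 12.05) depend on the prior count. For Mobp the value was 12.02 without the division by 11. Pvalb, the calcium buffer of fast-spiking interneurons (chr15:78191112-78206400), had 2 counts at E18.5 and 29.5, 45.7, 37.1, 33.8 and 36.2 CPM at 7 weeks, a ratio of 2275 (95% exact interval 629 to 18796).

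Scn4b, a sodium channel beta subunit (chr9:45138624-45154155), had a lowest, median and highest E18.5 level of 0.273, 0.401 and 0.845 CPM, and 301, 303, 342, 305 and 282 CPM at 7 weeks. Its log2 fold change was 9.44 (SE 0.09), and lack of overlap was a condition for all genes of this list. Mog and Mal, both myelin membrane protein genes, rose by 10.48 (SE 0.16) and 8.64 (SE 0.11), and Fa2h, which makes the hydroxylated fatty acids of myelin lipids, by 9.44 (SE 0.16). Etnppl, a phosphoethanolamine lyase gene expressed in astrocytes, rose by 9.48 (SE 0.33; 6.22 without the division by 11), with 7-week replicate 5 at 51.2 CPM and the other 4 between 26 and 32.7 CPM. Myoc, the gene of the secreted protein myocilin, had 1 count at E18.5 after the division by 11 and a ratio of 2622 (95% exact interval 470 to 103615, for counting error only). Its fitted log2 fold change was 10.55, and 7.82 without the division. Igfn1 completed the list of the 10 largest rises, with 4 counts at E18.5 after the division by 11, all in replicate 2-2, and 30 to 35.6 CPM at 7 weeks. Its fitted log2 fold change of 9.75 was 6.54 without the division and 12.39 without that library, where no E18.5 count was left and the value depends on the prior count.

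Among genes of at least 20 CPM at E18.5 whose ages did not overlap, the 10 largest falls included genes of young neurons and of progenitors. Draxin, a secreted axon guidance protein gene (chr4:148098437-148131139), ranged from 171 to 202 CPM at E18.5 with a median of 186, and stood at 1.15, 1.19, 1.13, 0.916 and 0.861 CPM at 7 weeks. Cd24a, which encodes a surface glycoprotein of young neurons (chr10:43579169-43584265), had a lowest, median and highest level of 1154, 1226 and 1269 CPM at E18.5. At 7 weeks Cd24a was at 9.14, 9.49, 10.3, 8.08 and 7.29 CPM (log2 fold change -7.10, SE 0.06). Sox11, a transcription factor of newborn neurons (chr12:27334268-27342718), was at 977, 1056 and 1166 CPM at its lowest, median and highest in the embryo. It was at 16.3, 13.7, 13.2, 12.6 and 13.8 CPM at 7 weeks (log2 fold change -6.26, SE 0.07). In all 3 genes every embryonic library lay far above every 7-week library, where lack of overlap was a condition of this list.

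Among the other large falls, the mRNA-binding protein gene Igf2bp3 changed by -7.83 (SE 0.21; -9.56 without 7-week replicate 2) and Igfbpl1, named for its likeness to insulin-like growth factor binding proteins, by -7.01 (SE 0.07). Trim67, a tripartite-motif protein gene of the nervous system, changed by -6.96 (SE 0.06), and Eomes, the transcription factor of intermediate progenitors, by -6.71 (SE 0.14). Eomes was lowest among the embryonic libraries in replicate 1-2, at 23.5 CPM, against 29.3 to 31.6 CPM in the other 5. Gpc2, a cell surface proteoglycan gene, changed by -6.63 (SE 0.09), the metalloprotease gene Adamts7 by -6.46 (SE 0.15) and the glycolipid glycosyltransferase gene B3gnt5 by -6.16 (SE 0.11).

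**Figure D2:**
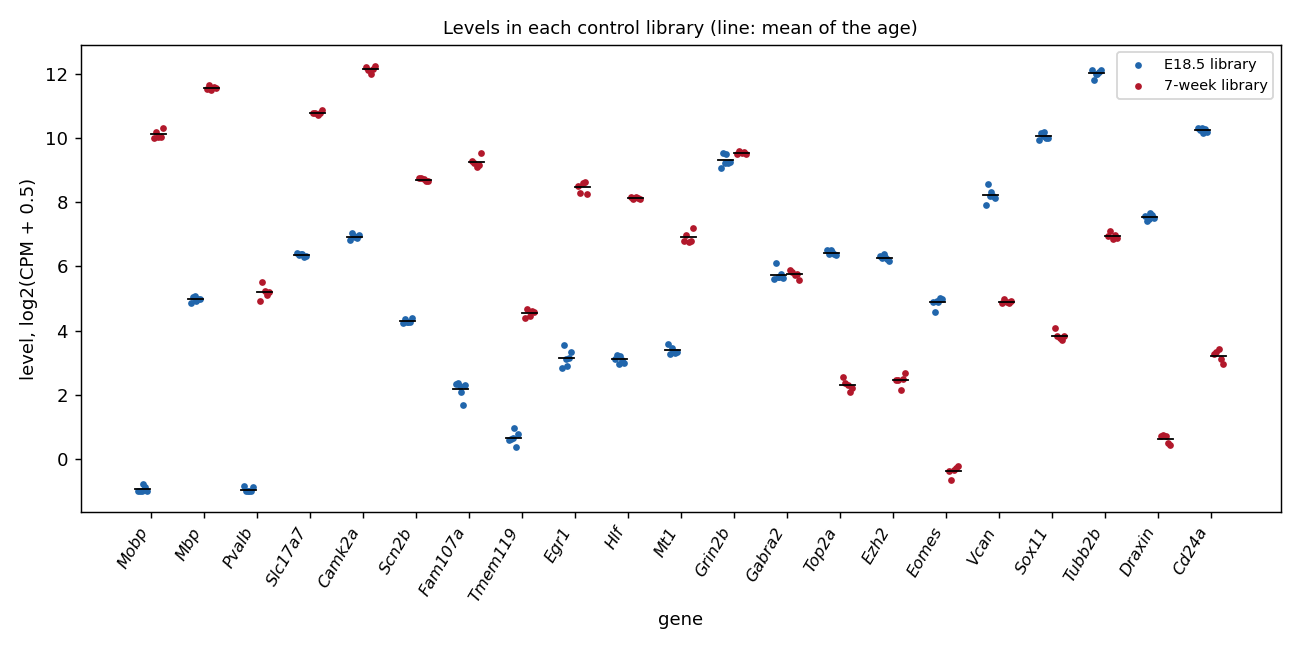
Level in log2(CPM + 0.5) of 21 genes in each of the 6 E18.5 libraries (blue) and the 5 7-week libraries (red), with the mean of each age as a line. Genes toward the left, such as Mobp, stand higher at 7 weeks and genes toward the right, such as Cd24a, stand higher at E18.5, in no order of size. These 21 genes were picked by hand. Only Grin2b and Gabra2 among them overlap between the ages, where 80.3% of all genes tested do not.

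The genes were then read by list, 15 of cell type markers and 22 of pathways or complexes. For each list the count of called genes stands beside the 10.6% higher and 5.72% lower over all genes, and its median beside -0.02. A list's RNA share is the summed count of its genes as a percent of the library. In whole tissue, fewer cells of a type and less RNA per cell cannot be told apart.

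**Figure D3:**
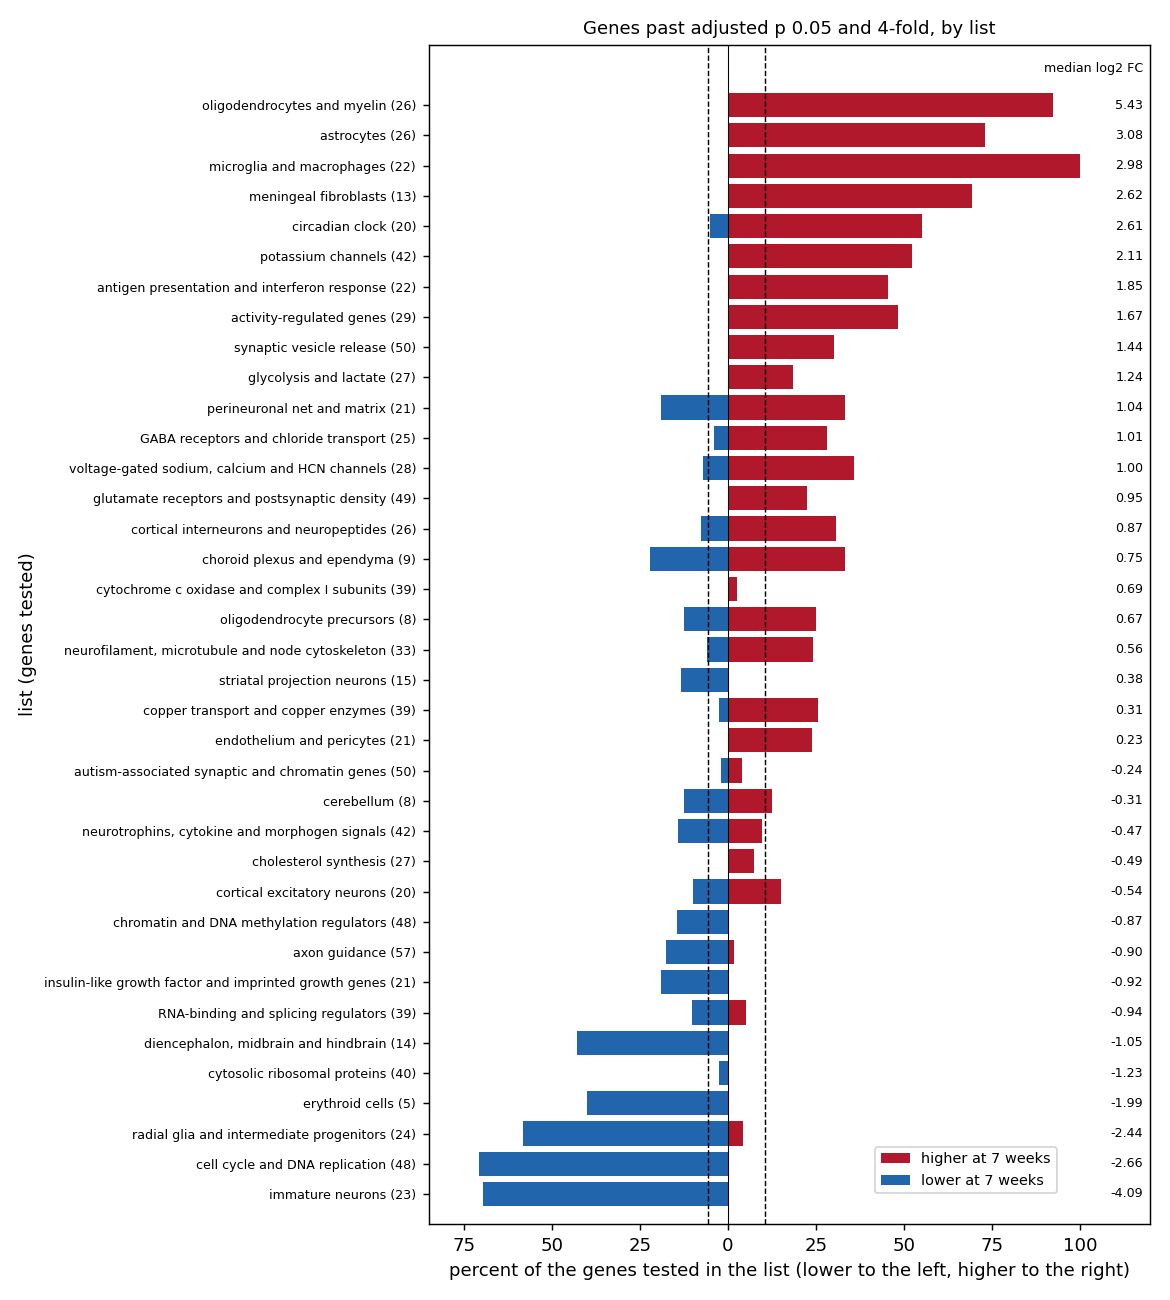
Percent of the genes tested in each of 37 lists called higher (red, to the right) or lower (blue, to the left) at 7 weeks, with the number tested in parentheses and the median log2 fold change at the right. Dashed lines mark the 10.6% and 5.72% over all genes; immature neurons (median -4.09) and oligodendrocytes and myelin (median 5.43) are at the ends.

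Of 24 markers of radial glia and intermediate progenitors tested, 14 fell (58.3%), 1 rose and 9 were not called, with a median of -2.44. Igf2bp1, an mRNA-binding protein gene of embryonic tissue, had 2374 counts in the embryo and 2 at 7 weeks, both in replicate 2. Its E18.5 to 7-week ratio was 981 (95% exact interval 271 to 8105, for counting error only), and without that library no 7-week count was left. Nes, the intermediate filament gene of neural stem cells, was at 112 ± 5.86 CPM (SD, n = 6) at E18.5 and 13 ± 1.48 CPM (SD, n = 5) at 7 weeks. The 1 marker that rose was Hopx, a homeodomain gene of radial glia that adult astrocytes also express, which went from 6.77 to 9.32 CPM in the embryo to 33 to 43.7 CPM at 7 weeks. The list's RNA share went from 0.19 to 0.202% at E18.5 to 0.0442 to 0.0471% at 7 weeks.

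Of 48 genes of the cell cycle and DNA replication, 34 (70.8%) fell and none rose, with a median of -2.66, where 5.72% of all genes fell. Top2a, the topoisomerase of dividing cells, was at 80.7, 84.6 and 91.2 CPM (lowest, median, highest) at E18.5 and at 5.42, 4.64, 4.47, 3.72 and 4.17 CPM at 7 weeks. The largest change was in Cdk1, the kinase that drives entry into mitosis (-4.44, SE 0.11), followed by the spindle checkpoint kinase gene Bub1 (-4.34, SE 0.16) and Top2a (-4.25, SE 0.07). The replicative helicase genes Mcm6 and Mcm7 changed by -2.65 and -2.66. The 14 genes not called included 4 with a value above 0, Ccne1 (1.74), E2f1 (1.5), Ccnd1 (0.61) and Ccne2 (0.10). Of these, Ccne1, a cyclin gene of the G1 to S transition, was at 4.7 ± 0.284 CPM (SD, n = 6) at E18.5 and 15.8 ± 1.03 CPM (SD, n = 5) at 7 weeks.

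Short sequences known from cell cycle promoters were looked up, on both strands, in the 250 bases before the annotated start of these genes. They were E2F-type letters (TTTCGCGC, TTTGGCGC or TTTCCCGC), the cell cycle homology region CHR (TTTGAA) and CCAAT, and E2F matches may overlap one another. RefSeq promoters (GRCm38.p6) were matched for 37 of the 48 genes. The genes Ccna2, Ccnd1, Ccnd2, Ccne2, Gmnn, Mcm4, Gins2, Aurkb, Kif20a, Tpx2 and Foxm1 had no entry in the table. E2F-type letters were in 6 of the 37 promoters (16.2%) and in 1.59% of all 27025 promoters of the same length. CHR letters were in 10 (27.0%) against 16.3%, and CCAAT was in 29 (78.4%) against 34.5%. The promoter of Cdk1, the gene of the list with the largest change, is shown because it held all 3 motifs, and those of Mcm7 and Mcm6 because these genes of 1 helicase held E2F-type letters and CCAAT. They lie at chr10:69352913-69353162, chr5:138171884-138172133 and chr1:128359706-128359955, all on the minus strand, and are written 5' to 3' along the gene with the matches in capitals.
Cdk1: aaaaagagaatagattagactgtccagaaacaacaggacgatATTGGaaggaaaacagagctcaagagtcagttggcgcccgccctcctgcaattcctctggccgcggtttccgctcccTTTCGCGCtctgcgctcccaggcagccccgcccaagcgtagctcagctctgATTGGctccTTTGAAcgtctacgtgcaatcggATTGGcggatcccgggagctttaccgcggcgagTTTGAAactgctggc
Mcm7: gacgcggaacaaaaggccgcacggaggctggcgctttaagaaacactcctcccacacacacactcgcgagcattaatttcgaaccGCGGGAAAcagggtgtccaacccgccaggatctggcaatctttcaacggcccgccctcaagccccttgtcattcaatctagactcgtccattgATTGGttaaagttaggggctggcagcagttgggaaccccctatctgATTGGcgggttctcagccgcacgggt
Mcm6: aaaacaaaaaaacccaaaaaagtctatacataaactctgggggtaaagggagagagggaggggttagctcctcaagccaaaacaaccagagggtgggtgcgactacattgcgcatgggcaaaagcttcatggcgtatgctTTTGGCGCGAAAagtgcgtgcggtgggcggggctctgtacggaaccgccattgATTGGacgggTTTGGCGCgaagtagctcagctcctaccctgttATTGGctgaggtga
The matches are a description of these windows, and whether any factor binds there was not tested.

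Of 23 markers of immature neurons, 16 fell (69.6%), none rose and 7 were not called, with a median of -4.09. All 23 were below 0 and none overlapped between the ages, as was so for 80.3% of all genes. Beyond Draxin, Cd24a and Igfbpl1, described above, the microtubule-binding protein gene Dcx of migrating neurons was at 2059 ± 141 CPM (SD, n = 6) at E18.5 and 41.3 ± 2.48 CPM (SD, n = 5) at 7 weeks. Tubb2b, a beta-tubulin of growing neurites, was at 3593, 4168 and 4482 CPM (lowest, median, highest) in the embryo and at 124, 137, 116, 126 and 117 CPM at 7 weeks. The uncalled members, such as the growth cone gene Gap43 (-1.71) and the microtubule destabiliser gene Stmn1 (-1.80), lay nearer to 0. In the embryo 3.71 to 3.88% of each library came from this list, against 0.459 to 0.477% at 7 weeks.

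Of 57 axon guidance ligands and receptors, 10 fell (17.5%), 1 rose and 46 were not called, with a median of -0.90. Among ligands, the ephrin gene Efna4 changed most (-4.67, SE 0.19). Among receptors, the ephrin receptor gene Epha3 was at 98.8, 109 and 111 CPM (lowest, median, highest) at E18.5 and 10.1, 12.1, 10.3, 11.1 and 10.5 CPM at 7 weeks, and the semaphorin receptor subunit gene Plxna3 changed by -3.25 (SE 0.05). Robo3, a receptor of the Slit and Robo family known for midline crossing, went the other way, from 2.46 to 2.94 CPM in the embryo to 26, 28, 23.9, 27 and 31.6 CPM at 7 weeks.

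Of 42 neurotrophin, cytokine and morphogen genes, ligands and receptors included, 4 rose (9.52%, where 10.6% of all genes did), 6 fell (14.3%, where 5.72% did) and 32 were not called. The fibroblast growth factor genes Fgf1 (6.04, SE 0.10) and Fgf2 (2.86, SE 0.15), the bone morphogenetic protein gene Bmp4 (4.86, SE 0.24) and the neurotrophin gene Bdnf (3.36, SE 0.08) rose. Bdnf was at 2.72, 3.71 and 4.55 CPM (lowest, median, highest) in the embryo and at 39.3, 39.8, 38.3, 40.6 and 33.7 CPM at 7 weeks. In contrast Ntf3, which encodes neurotrophin-3, fell (-3.99, SE 0.15), as did the neurotrophin receptor gene Ngfr (-3.60, SE 0.15). Cxcr4, the chemokine receptor of migrating neurons, went from 29.1 to 30.2 CPM to 1.15, 1.1, 0.792, 1.08 and 0.679 CPM. The Notch ligand genes Dll1 (-2.59) and Dll3 (-2.38) and the growth factor gene Mdk (-2.36) made up the rest of the falls.

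Of 21 insulin-like growth factor and imprinted growth genes, 4 fell (19%) and none rose. They were Magel2 (-4.08, SE 0.13), the cell cycle inhibitor gene Cdkn1c (-3.63, SE 0.08), the Notch-related gene Dlk1 (-3.08, SE 0.18) and Igfbp3 (-2.0). Igf2, the fetal growth factor gene, was at 1.21 ± 0.238 CPM (SD, n = 6) at E18.5 and 1.23 ± 0.309 CPM (SD, n = 5) at 7 weeks, and neither it nor its receptor gene Igf2r (-0.26) was called.

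Markers of cortical excitatory neurons went in both directions. Of 20 genes, 3 rose (15%, where 10.6% of all genes did), 2 fell (10%, where 5.72% did) and 15 were not called. The median was -0.54. Slc17a7, the vesicular glutamate transporter of cortical synapses, was at 77.7, 82.5 and 84.3 CPM (lowest, median, highest) at E18.5 and at 1750, 1756, 1668, 1744 and 1878 CPM at 7 weeks. The calmodulin-binding postsynaptic gene Nrgn (3.88, SE 0.05) and the Ras exchange factor gene Rasgrf2 (2.63, SE 0.04) also rose. The 2 that fell were transcription factors, Neurod6 (-2.32, SE 0.06), from 489 to 564 CPM to 109, 103, 112, 115 and 87.5 CPM, and Bcl11b (-2.06, SE 0.05) of deep-layer and striatal neurons. The layer genes Rorb (0.13), Cux2 (-0.23), Fezf2 (-0.54) and Tbr1 (-0.54), named after their values were seen, stood within 2-fold. Without TMM factors 5 genes of this list fell.

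Interneuron and neuropeptide genes rose in 8 of 26 (30.8%), fell in 2 and were not called in 16, and all 26 separated the ages, as did 80.3% of all genes. Vip, a neuropeptide gene of interneurons (chr10:5639193-5647617), had a lowest, median and highest of 0.0418, 0.179 and 0.313 CPM at E18.5 and 41.6, 43.5, 36.4, 40.8 and 45.5 CPM at 7 weeks. Lamp5, a membrane protein gene of neurogliaform cells, was at 1.21 to 2.21 CPM and then at 242, 270, 242, 263 and 245 CPM. The 2 that fell were Lhx6, the transcription factor of interneurons from the medial ganglionic eminence (-2.32, SE 0.05), and Chodl, a marker of a sparse long-range type (-3.69, SE 0.12). By comparison Sst (0.98), Npy (0.65) and the vesicular GABA transporter gene Slc32a1 (0.85) were not called. Sst was at 100.4 ± 3.82 CPM (SD, n = 6) at E18.5 and 198 ± 6.59 CPM (SD, n = 5) at 7 weeks.

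Apart from Pvalb, the called genes of striatal projection neurons and of other brain regions were lower at 7 weeks. Of 15 striatal genes, none rose and 2 fell (13.3%, where 5.72% of all genes did). They were the transcription factor genes Isl1 (-4.82, SE 0.12) and Ebf1 (-3.61, SE 0.11), both known from developing striatal neurons. The adult receptor genes Adora2a (0.38), Drd1 (0.73) and Drd2 (0.55) were not called. Of the 14 diencephalic, midbrain and hindbrain genes that could be tested, 6 fell and none rose, with a median of -1.05. That median was -0.64 without E18.5 replicate 2-1, -0.66 without E18.5 replicate 3-1 and -3.24 for genes with a mean of at least 50 counts. The transcription factor genes Sim1, at 0 in all 5 libraries at 7 weeks and at least 60.6-fold lower there, and Lhx9 (-5.18, SE 0.22) were among them. So was the serotonin transporter gene Slc6a4, with 169 counts in the embryo and 3 at 7 weeks, in replicates 1 (0.0459 CPM) and 3 (0.113 CPM) only. Its E18.5 to 7-week ratio was 46.6 (95% exact interval 15.7 to 228). In this list 1 gene rose when 7-week replicate 2, E18.5 replicate 2-1 or E18.5 replicate 3-1 was left out. Of 8 cerebellar genes 1 rose and 1 fell (12.5% each, where 10.6% and 5.72% of all genes did). Pvalb, which the interneuron list also holds, rose, and the synapse organiser gene Cbln1 fell (-2.32, SE 0.07). The part of a difference in dissection in these values was not tested.

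Of 50 genes of the presynaptic release machinery, 15 rose (30%), none fell and 35 were not called, with a median of 1.44, and 46 of 50 were above 0 (44 without TMM factors). Cplx3, a complexin that regulates fusion, was at 0.325, 0.51 and 0.813 CPM (lowest, median, highest) in the embryo and at 19.2, 24.5, 24, 23.8 and 24.9 CPM at 7 weeks. The vesicle protein genes Syt12 (4.90, SE 0.08) and Vamp1 (4.47, SE 0.06) followed. Snap25, the plasma membrane SNARE gene, was at 248 ± 10.2 CPM (SD, n = 6) at E18.5 and 3517 ± 74.4 CPM (SD, n = 5) at 7 weeks. Its vesicle partner gene Vamp2, at 1.58, was not called. The list's share went from 0.84 to 0.879% in the embryo to 2.68 to 2.7%.

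Among glutamate receptor and postsynaptic density genes, 11 of 49 rose (22.4%), none fell and 38 were not called, with a median of 0.95. Camk2a, the calcium/calmodulin kinase of the postsynaptic density, was at 112, 121 and 132 CPM (lowest, median, highest) at E18.5 and at 4728, 4460, 4100, 4520 and 4869 CPM at 7 weeks. The NMDA receptor subunit gene Grin2a was at 9.39, 10.6 and 15.2 CPM and then at 228, 261, 238, 233 and 237 CPM, and Grin2c rose by 4.95 (SE 0.08). Grin2b, the embryonic partner of Grin2a, overlapped between the ages, from 534 to 746 CPM at E18.5 and at 722, 780, 741, 765 and 722 CPM at 7 weeks (0.23, SE 0.06). The AMPA receptor gene Gria2 (0.04) was not called either.

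GABA receptor and chloride transport genes rose in 7 of 25 (28%), and 1 fell. Gabrd, the extrasynaptic delta subunit of the GABA-A receptor, changed by 4.77 (SE 0.07), and Slc12a5, the chloride exporter KCC2 that makes GABA inhibitory, by 2.88 (SE 0.04). The 1 gene that fell was Glra2, the fetal glycine receptor alpha subunit (-2.47, SE 0.05). The GABA-A subunit genes Gabra2 (0.02) and Gabra5 (-0.27) were not called. Without TMM factors 4 genes of this list rose.

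Potassium channel genes rose in the largest share of the synapse and channel lists, 22 of 42 (52.4%), with none lower and a median of 2.11. They included the inward rectifier genes Kcnj4 (4.71, SE 0.05) and Kcnj9 (4.65, SE 0.05) and Kcna1, a delayed rectifier of axons. Kcna1 was at 5.25, 6.01 and 7.02 CPM (lowest, median, highest) at E18.5 and at 128, 134, 139, 129 and 136 CPM at 7 weeks. Of 28 sodium, calcium and HCN channel genes, 10 rose (35.7%) and 2 fell. Those that rose included Scn4b, described above, and Scn2b, another sodium channel beta subunit gene (4.44, SE 0.04). The 2 that fell were the sodium channel gene Scn9a (-4.12, SE 0.12) and the pacemaker channel gene Hcn4 (-3.05, SE 0.09), and neither overlapped between the ages.

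Gene pairs, each of an earlier and a later expressed gene, were compared as log2 ratios of the later to the earlier gene, with 0.5 CPM added. Some are related genes known for an exchange of forms, while others, such as Sox10 and Sox11, mark different cell types. A ratio of 2 genes also depends on their transcript lengths, so only its difference between ages is read. Of 20 pairs, the globin pair could not be read, since the embryonic gene Hbb-bh1 was at 0 in all 11 libraries, and 2 are not reported here. The pairs were chosen as known earlier and later genes, so their direction is a description. In 12 of the other 17 the ratio was higher at 7 weeks by at least 4-fold, and in 5 it moved by less than 4-fold, the size below which no difference was called. Sox10 of oligodendrocytes over Sox11 of newborn neurons moved by 8.29, and the tubulins Tubb4a over Tubb2b by 6.39. The neurofilament Nefh over internexin Ina moved by 5.40, and the synaptotagmins Syt2 over Syt4 by 5.33.

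In several pairs 1 partner was called and the other was not. For Grin2a over Grin2b (4.13), the later gene rose and the earlier one was not called. For Ezh1 over Ezh2 (4.73) and the proteoglycans Bcan over Vcan (4.95), the earlier gene fell and the later one was not called. The sodium channel pair Scn1a over Scn3a moved by 4.47 and the kinase pair Camk2a over Camk2d by 4.64. The chloride transporters Slc12a5 over Slc12a2 moved by 2.31, where Slc12a5 rose and the importer gene Slc12a2 stood at 0.57, not called. Among the pairs under 4-fold were subunits of BAF chromatin remodelling complexes, Dpf1 over Phf10 (-1.51), Ss18l1 over Ss18 (-0.78) and Actl6b over Actl6a (0.45). Of the 17 ratios, 15 were higher and 2 lower at 7 weeks. Those 2, Dpf1 over Phf10 and Ss18l1 over Ss18, went against the order of the pair and did not overlap between the ages.

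**Figure D4:**
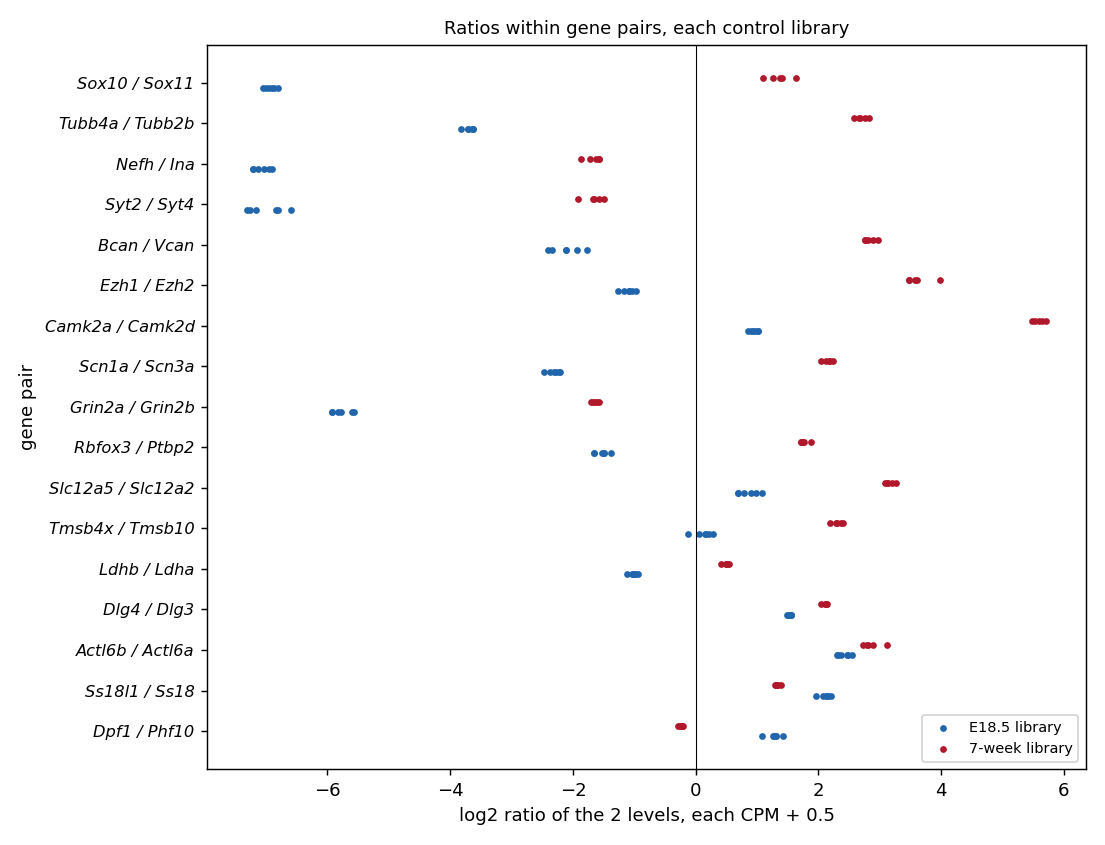
Log2 ratio of the later to the earlier gene (each CPM + 0.5) for 17 gene pairs, 1 point for each of the 6 E18.5 libraries (blue) and 5 7-week libraries (red). The ratio is higher at 7 weeks by at least 4-fold for 12 pairs and moves by less for 5, of which 2 are lower at 7 weeks. Positions along the axis also reflect transcript length.

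Activity-regulated genes rose in 14 of 29 (48.3%), none fell and 15 were not called, with a median of 1.67. Arc, a synaptic immediate early gene, was at 2.89, 3.58 and 5.15 CPM (lowest, median, highest) at E18.5 and at 265, 131, 166, 221 and 83.4 CPM at 7 weeks, where libraries differed by more than 3-fold. Egr1, an immediate early transcription factor, was at 6.57 to 11.3 CPM in the embryo and at 366, 312, 387, 398 and 307 CPM at 7 weeks. Egr4 changed by 4.97 (SE 0.14). Some members of the same classes did not rise, such as Nr4a2 (-1.77), Sik1 (-1.82) and Jun (0.16), named after their values were seen.

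Circadian clock genes rose in 11 of 20 (55%) and 1 fell, with a median of 2.61. Hlf, a PAR-domain transcription factor gene of the clock output, was at 7.31, 8.06 and 9.03 CPM (lowest, median, highest) at E18.5 and at 286, 277, 288, 279 and 272 CPM at 7 weeks. The repressor genes Bhlhe41 (4.14, SE 0.09) and Nr1d1 (3.96, SE 0.08) also rose. The 1 that fell was Nfil3, a repressor of the genes that PAR-domain factors activate (-2.44, SE 0.07), from 30.9 to 36.8 CPM to 6.29, 7.46, 6.05, 6.04 and 5.75 CPM. The core activators Clock (1.08) and Arntl (0.44) were not called. The hour of sampling is not given in the sources used here.

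Oligodendrocyte and myelin genes rose in 24 of 26 (92.3%), none fell and 2 were not called, with a median of 5.43, the highest of the 37 lists. Mbp, which encodes myelin basic protein, was at 30.9 ± 1.73 CPM (SD, n = 6) at E18.5 and 3038 ± 130 CPM (SD, n = 5) at 7 weeks. The 2 uncalled genes were the lineage transcription factors Olig1 (0.84) and Olig2 (0.05), the latter at 27.8 ± 1.55 and 28.7 ± 2.51 CPM. Sox10, another lineage factor, stood at 2.14 (SE 0.06), next to the threshold, and at 1.99 without TMM factors, where it was not called and the list's count was 23. Their share of RNA was 0.0229 to 0.0254% in the embryo and 0.812 to 0.949% at 7 weeks. Of 8 precursor genes, Neu4 (6.92, SE 0.20; 3.58 without the division by 11), a sialidase gene, and Matn4 (2.25, SE 0.12), a matrix protein gene, rose and the proteoglycan gene Vcan fell (-3.34, SE 0.08). The defining precursor receptor gene Pdgfra, at 0.37, was not called.

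Astrocyte genes rose in 19 of 26 (73.1%), none fell and 7 were not called, with a median of 3.08. Gjb6, the gap junction gene connexin 30, had a lowest, median and highest of 0, 0.0781 and 0.51 CPM at E18.5 and 51.3, 57.3, 53.4, 53.4 and 60.2 CPM at 7 weeks. The highest E18.5 level was that of replicate 3-1, with the other embryonic libraries between 0 and 0.128 CPM. The log2 fold change of Gjb6 was 8.44, and 5.06 without the division by 11. Fam107a, an actin-associated protein gene, was at 2.68, 4.4 and 4.68 CPM and then at 625, 600, 552, 567 and 742 CPM, and the calcium-binding protein gene S100b changed by 7.19 (SE 0.09). Slc1a2, the main glutamate transporter of astrocytes, was at 140 ± 11.3 CPM (SD, n = 6) at E18.5 and 4117 ± 201 CPM (SD, n = 5) at 7 weeks. The lineage factor gene Sox9, at -0.53, was the only member below 0.

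All 22 microglia and macrophage genes tested rose, where 10.6% of all genes did, with a median of 2.98. Tmem119, a membrane protein gene of mature microglia, was at 0.807, 1.06 and 1.45 CPM (lowest, median, highest) at E18.5 and at 20.4, 24.9, 21.4, 23.9 and 23.2 CPM at 7 weeks. Selplg, a selectin ligand gene, changed by 4.89 (SE 0.11), and Cd163, a scavenger receptor gene of macrophages at vessels and meninges, by 4.14 (SE 0.44; 5.17 without E18.5 replicate 1-2). The smallest value of the list was that of Fcrls (2.01), next to the threshold, where leaving out TMM factors moved values over all genes by a median of -0.15. The list's share of counts went from 0.00932 to 0.0106% up to 0.0575 to 0.0641%.

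Genes of antigen presentation and the interferon response rose in 10 of 22 (45.5%) and none fell, with a median of 1.85. Ifit3, an interferon-induced antiviral gene, went from 0.17 to 0.456 CPM at E18.5 to 9.79, 9.85, 8.54, 7.71 and 11.1 CPM at 7 weeks. Ifit1 changed by 4.54 (SE 0.33) and Cd74, the invariant chain of MHC class II, by 3.69 (SE 0.29). Among genes with a mean of at least 50 counts, 6 of the list rose. The microglia list moved with it as given above, and the part of that list in these values was not tested.

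Vessel genes rose in 5 of 21, none fell and 16 were not called, with a median of 0.23 (0.07 without TMM factors). Slco1a4, an organic anion transporter of the blood-brain barrier (chr6:141805438-141856284), was at 0.255, 0.44 and 0.638 CPM (lowest, median, highest) in the embryo and at 49.1, 49.6, 51.1, 49.8 and 52.1 CPM at 7 weeks. The endothelial surface gene Ly6c1 (3.30, SE 0.09) and the smooth muscle gene Tagln (2.55, SE 0.20) followed. The defining endothelial genes Pecam1 (0.06) and Cldn5 (-0.69) were not called, and the list's share was 0.0572 to 0.0666% in the embryo and 0.0525 to 0.0568% at 7 weeks.

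Meningeal fibroblast genes rose in 9 of 13 (69.2%), led by Aldh1a2, which makes retinoic acid, from 0 to 0.297 CPM to 6.52, 6.4, 7.63, 7.11 and 7.43 CPM (log2 fold change 5.54, and 2.17 without the division by 11), by the transporter gene Slc6a13 (4.24, SE 0.19) and by Alx4 (3.13, SE 0.28). The collagen gene Col3a1 (0.24) overlapped between the ages. Their summed share stayed small, 0.00151 to 0.00311% in the embryo and 0.00922 to 0.0109% at 7 weeks. Choroid plexus and ependymal genes gave 3 higher, 2 lower and 4 not called of 9. One of the 3 was Ttr, the transthyretin gene of the choroid plexus, at 54.8 CPM in 7-week replicate 4 and between 0.181 and 0.781 CPM in the other 4, against 0.167 to 2.55 CPM at E18.5. Without that library the log2 fold change of Ttr was -0.58 and the median of the list -0.52 in place of 0.75, and DESeq2 with all libraries did not call Ttr, at a log2 fold change of 3.85. The list's median was also 1.27 without 7-week replicate 5, 0.11 with the values as deposited, 1.28 without the filter on low counts and 1.62 for genes with a mean of at least 50 counts.

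Of 5 globin and other erythroid genes tested, 2 fell and 3 were not called. The 2 that fell were Hba-a2 (-3.12, SE 0.18) and Hba-a1 (-2.19, SE 0.15). Hba-a1 was at 28.3, 47.1 and 60.2 CPM (lowest, median, highest) in the embryo and at 7.77, 10.8, 7.52, 13.5 and 10.8 CPM at 7 weeks. These 2 genes encode the same alpha-globin and reads may be shared between them. Hbb-bs stood at -1.99, next to the threshold. The number called was 5 without 7-week replicate 2, and 4 without 7-week replicate 4 or E18.5 replicate 1-2.

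Of 39 cytochrome c oxidase and complex I subunit genes, which carry out mitochondrial respiration, 1 rose (2.56%, where 10.6% of all genes did) and 38 were not called. The median was 0.69, and 38 stood above 0 (34 without TMM factors). The gene that rose was Cox6a2, the muscle-type subunit gene, from 0.065 to 0.365 CPM to 5.88, 7.6, 5.09, 6.47 and 6.61 CPM. Of 27 glycolysis and lactate genes, 5 rose (18.5%) and none fell, with a median of 1.24. Eno2, the neuronal enolase gene, was at 82.8 to 92 CPM and then at 1012, 1011, 1027, 1035 and 1059 CPM, and the aldolase genes Aldoc (3.36, SE 0.06) and Aldoa (3.0, SE 0.04) also rose.

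Of 40 cytosolic ribosomal protein genes, 1 fell (2.5%) and 39 were not called. All 40 stood below 0 with and without TMM factors, with a median of -1.23 (-1.38 without). The gene that fell was Rplp0, a stalk protein gene, at 781, 926 and 1033 CPM (lowest, median, highest) at E18.5 and at 201, 202, 205, 205 and 224 CPM at 7 weeks.

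Of 27 genes of cholesterol synthesis and handling, 2 rose (7.41%, where 10.6% of all genes did), Apoe and Cyp46a1. Apoe, the lipid carrier of astrocytes, went from 109 to 134 CPM to 1332, 1226, 1160, 1333 and 1483 CPM. Cyp46a1, the neuronal enzyme of cholesterol removal, changed by 3.33 (SE 0.04). None fell and 25 were not called, with a median of -0.49. The enzymes of synthesis Fdps (-1.93), Sqle (-1.69) and Hmgcs1 (-1.37), named after their values were seen, were not called. Hmgcs1, the gene of the cytosolic HMG-CoA synthase, was at 1005 ± 39 CPM (SD, n = 6) at E18.5 and 388 ± 12.5 CPM (SD, n = 5) at 7 weeks.

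Of 48 chromatin regulators, 7 fell (14.6%), none rose and 41 were not called, with a median of -0.87. Ezh2, the histone H3 lysine methyltransferase of the Polycomb complex (chr6:47530274-47595270), was at 70.8, 77.3 and 82.6 CPM (lowest, median, highest) at E18.5 and at 4.96, 5.03, 3.9, 5.12 and 5.93 CPM at 7 weeks. Uhrf1, the cofactor of maintenance DNA methylation, changed by -3.52 (SE 0.11) and the de novo methyltransferase gene Dnmt3b by -2.61 (SE 0.19). RNA-binding proteins gave 4 lower (10.3%, where 5.72% of all genes fell) and 2 higher (5.13%, where 10.6% rose) of 39. Their median was -0.94. Those that fell included Igf2bp2 (-4.52, SE 0.13), Hnrnpab (-2.36, SE 0.04) and Msi1 (-2.26, SE 0.05), a neural stem cell gene. Those that rose were Cpeb1, a regulator of polyadenylation and translation, from 2.13 to 3.19 CPM to 56.1, 51.7, 56.8, 59.2 and 57.3 CPM, and the splicing regulator gene Mbnl2 (3.38, SE 0.05).

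Of 33 cytoskeletal genes, 8 rose (24.2%, where 10.6% of all genes did) and 2 fell (6.06%, where 5.72% did), and the list's share was 2.24 to 2.39% in the embryo and 2.25 to 2.33% at 7 weeks. Cntnap1, the paranodal protein of myelinated axons, went from 4.32 to 6.29 CPM to 321, 336, 335, 333 and 301 CPM. The alpha-tubulin genes Tuba8 (5.59, SE 0.19) and Tuba4a (4.72, SE 0.04) rose, while the beta-tubulin gene Tubb5 (-2.65, SE 0.05) and the kinesin gene Kif21b (-2.50, SE 0.05) fell.

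Matrix genes were likewise split, with 7 of 21 higher (33.3%) and 4 lower (19%). Hapln4, a link protein of perineuronal nets, was at 0.543, 0.723 and 0.876 CPM (lowest, median, highest) at E18.5 and at 156, 163, 162, 164 and 159 CPM at 7 weeks, and Hapln2, a link protein of nodes, changed by 6.14 (SE 0.18). Lgi3, a secreted synaptic and axonal protein gene, changed by 5.98 (SE 0.08). Tnc, the tenascin of germinal zones, went the other way, from 217 to 265 CPM to 5.33, 5.87, 3.62, 5.28 and 2.85 CPM. The hyaluronan synthase genes Has3 (-3.99, SE 0.08) and Has2 (-2.76, SE 0.24) and Vcan (-3.34) also fell.

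Since the series concerns copper, the genes of copper transport and of copper enzymes were read in the control libraries by role. Of 39 tested, 10 rose (25.6%, where 10.6% of all genes did), 1 fell and 28 were not called, with a median of 0.31 (0.16 without TMM factors). Among metal-binding proteins, the metallothionein genes Mt1, Mt2 and Mt3 rose. Mt1 was at 9.16, 9.6 and 11.6 CPM (lowest, median, highest) at E18.5 and at 111, 126, 109, 111 and 147 CPM at 7 weeks, Mt2 changed by 2.90 and Mt3 by 2.5. Among secreted copper enzymes, the ferroxidase ceruloplasmin gene Cp was at 0.894, 1.1 and 1.31 CPM and then at 13.4, 10.8, 13.4, 12.1 and 12.6 CPM. The extracellular superoxide dismutase gene Sod3 was at 0.979 to 1.62 CPM in the embryo and at 11.4, 11.4, 8.09, 10.5 and 10.6 CPM at 7 weeks. The lysyl oxidase family gene Loxl2 fell (-2.95, SE 0.24), from 1.92 to 2.93 CPM to 0.138, 0.53, 0.396, 0.216 and 0.317 CPM.

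The genes of cellular copper handling, named after their values were seen, were not called. The importer gene Slc31a1 stood at -0.84 (SE 0.06), with 44.3 ± 3.13 CPM (SD, n = 6) at E18.5 and 24.7 ± 1.76 CPM (SD, n = 5) at 7 weeks. The exporter ATPase genes Atp7a (-1.45, SE 0.08) and Atp7b (-1.36, SE 0.11) were not called either. The chaperone gene Atox1 (0.05, SE 0.08) and the cytosolic superoxide dismutase gene Sod1 (0.22, SE 0.05) overlapped. The astrocyte list rose with the metallothionein genes and Cp, which astrocytes also express, and its part in their values was not tested.

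**Figure D5:**
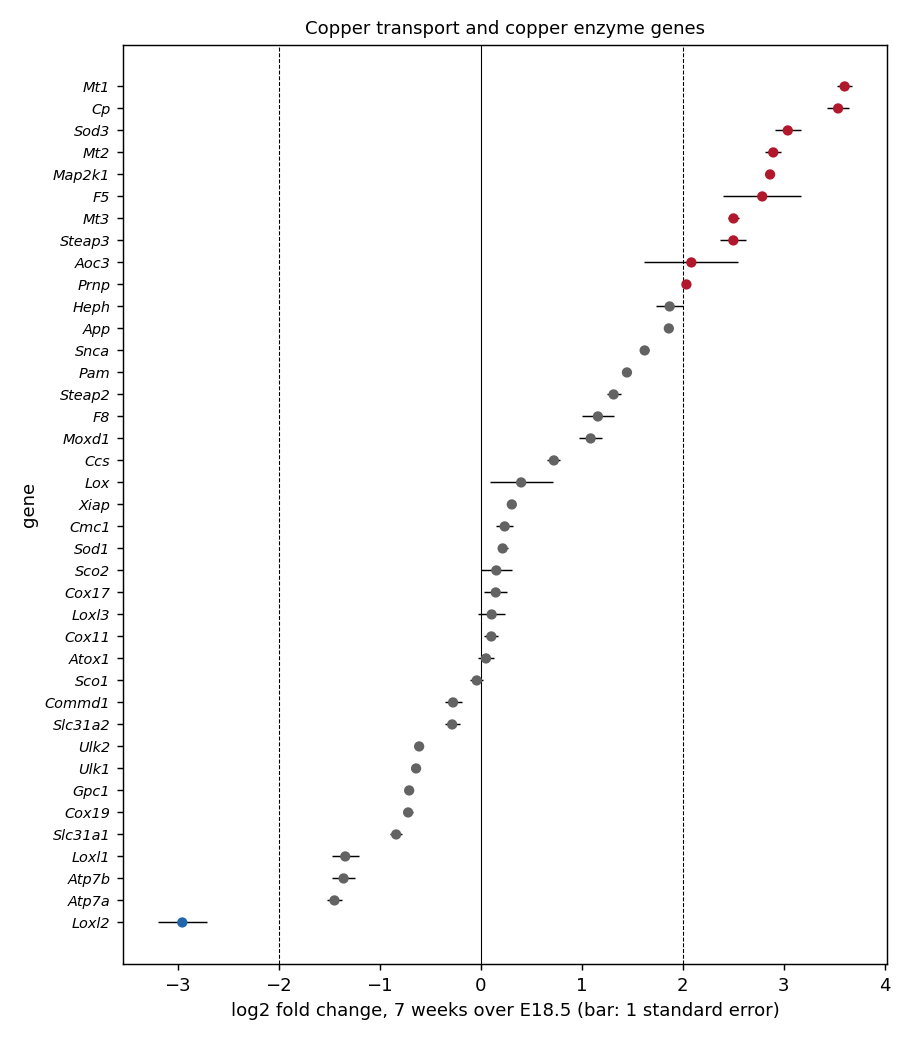
Log2 fold change (7 weeks over E18.5) with 1 standard error for 39 genes of copper transport and copper enzymes, red for the 10 called higher, blue for the 1 called lower and grey for the rest. Mt1 (3.61) and Cp (3.54) are at the top and Loxl2 (-2.95) at the bottom.

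Of 50 synaptic and chromatin genes linked to autism, the other subject of the series, 2 rose (4%, where 10.6% of all genes did), 1 fell (2%, where 5.72% did) and 47 were not called, with a median of -0.24 (-0.40 without TMM factors). The sodium channel gene Scn1a (2.93, SE 0.06) and the adhesion gene Cntn4 (2.31, SE 0.05) rose. Asxl3, a Polycomb-associated chromatin gene, fell (-2.66, SE 0.05), from 85.2 to 103 CPM to 15.6, 14.9, 15.3, 15.3 and 14.4 CPM. The scaffold gene Shank3 stood at 1.69, not called. The number lower was 2 without 7-week replicate 5 and 3 without TMM factors.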

How the data were processed

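RNA from 11 control mouse brain samples (6 at E18.5, 5 at 7 weeks) was analysed from the deposited count tables. The values are raw counts per gene symbol that the authors deposited in 1 table per age. Per the submitters' processing notes the tools were STAR 2.7.1a and featureCounts 2.0.1 and the build mm10. The strand setting and the annotation are not given in the sources used here, so overlapping and antisense genes cannot be told apart. The tables were joined by symbol, and the 1940 E18.5 symbols at 0 in replicate 1-1, whose other values were all multiples of 11, were divided by 11.

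Libraries held 14668965 to 24035857 counts. All 11 were fitted together in edgeR 4.0.16 (R 4.3.3) after filterByExpr (minimum count 10) with TMM factors and the quasi-likelihood test. The fit was tried on simulated counts with 200 of 14375 genes changed, as many up as down. With a log2 change of 2.5 it called 198 of them and 0 others. In the data 89.5% of genes passed without the size threshold, so this setting could not check the scaling between ages. Genes were called at an adjusted p under 0.05 and a log2 fold change of at least 2 in size. Intervals are exact binomial ones on the counts of both ages, and all of them cover counting error only, not the spread between libraries. Cell type and gene lists, and the members of the comparison, were chosen with earlier results of these data known. Named genes were the 10 largest called changes in each direction without overlap and with at least 20 CPM, and in each list the 3 largest called in each direction and up to 5 called against the majority. The pair and Y-linked genes were also named, and any other gene was chosen after its values were seen. Promoters came from RefSeq (GRCm38.p6). DESeq2 1.42.0, other scalings and filters, the values as deposited and leaving out each library were tried as alternatives. Some genes of these lists are counted in them but not reported by name here.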

Additional observations from a re-analysis of the deposited data

Results flagged for a closer look

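Within each age, a list's share of counts or a gene's level was marked where 1 library stood apart from the rest by Dixon's test, which chance does for about 1 in 20 sets. Of 176 sets examined 14 were marked, where 1 in 20 would be 8.8. At E18.5, replicate 3-1 stood apart for the meningeal fibroblast share (0.00311%, others 0.00151 to 0.00201%) and for the diencephalon, midbrain and hindbrain share (0.00495%, others 0.00334 to 0.00392%). Replicate 1-2 stood apart for the GABA receptor and chloride transport share (0.277%, others 0.254 to 0.262%), Eomes (23.5 CPM, others 29.3 to 31.6), Grin2a (15.2 CPM, others 9.39 to 11.5) and Gabra2 (68.2 CPM, others 48.8 to 54). Replicate 2-2 stood apart for the synaptic scaffold gene Dlg3 (142 CPM, others 128 to 133), and replicate 1-1 for Tmsb4x, an actin-binding thymosin gene (1185 CPM, others 967 to 1034).

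At 7 weeks, replicate 4 stood apart for the choroid plexus and ependyma share (0.00733%, others 0.00168 to 0.00224%), and replicate 5 for Etnppl (51.2 CPM, others 26 to 32.7). Replicate 2 stood apart for the cerebellar share (0.01001%, others 0.00872 to 0.00901%) and for the chromatin gene Phf10 (67.8 CPM, others 70.5 to 71.5). Replicate 1 stood apart for the lactate dehydrogenase gene Ldha (349 CPM, others 367 to 375), and replicate 3 for the synaptic scaffold gene Dlg4 (1047 CPM, others 1119 to 1133).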

How the results depend on the processing

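The counts of 1524 genes higher and 822 lower ranged over 1503 to 1541 and 792 to 840 when 1 library was left out. They were 1371 and 968 without TMM factors, 1551 and 801 with DESeq2, 1505 and 890 with the values as deposited (where 11 called genes reversed), 2055 and 1113 without the filter on low counts, and 1129 and 609 for genes with a mean of at least 50 counts. A threshold of 2-fold gave 3276 and 2554, and 8-fold (a log2 fold change of 3) gave 747 and 364. Among list counts, 13 of 74 moved by over 1.5 times in some alternative. Without TMM factors the number lower was 4 for erythroid cells, 5 for cortical excitatory neurons, 2 for ribosomal proteins, 3 for the autism list and 1 for cholesterol genes, and 4 GABA genes were higher. No list median changed sign there. Without the filter, 5 choroid plexus genes and 2 diencephalic, midbrain and hindbrain genes were higher, and 10 of the latter and 4 erythroid genes lower. For a mean of at least 50 counts, 1 choroid plexus gene and 6 antigen presentation genes were higher, and 0 choroid plexus, 1 diencephalic, midbrain and hindbrain and 0 copper genes lower. DESeq2 called 1 diencephalic, midbrain and hindbrain gene higher, leaving out the multiplied values left 1 precursor gene higher, and summing E18.5 libraries by their first number gave 4 erythroid genes lower. Leaving out 1 library gave 2 to 5 erythroid genes lower, 0 to 1 diencephalic, midbrain and hindbrain genes higher and 1 to 2 autism genes lower. It also gave a choroid plexus median of -0.52 to 1.27 and a log2 fold change of Ttr of -0.58 to 4.51. With 2 CPM added, the ratios moved by 3.97 for Grin2a over Grin2b, 4.94 for Nefh over Ina, 4.38 for Ezh1 over Ezh2, 4.89 for Syt2 over Syt4 and 7.98 for Sox10 over Sox11, and with 0.05 CPM by 5.58 for Nefh over Ina. Apart from the effect of testing fewer genes or samples, the causes were not tested. No paired analysis was possible because the 2 ages are different samples and share no replicate numbers. With a minimum count of 10, genes of low level were not tested.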
